A study of Homo sapiens with 4 samples.

Results

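The genes described here are the matrix metalloproteinases (MMPs), the ADAMTS proteases and the tissue inhibitors of metalloproteinases (TIMPs), measured in 2 human tumour cell lines given the GLI inhibitor GANT61 or its solvent. They were chosen by name, as every probe whose gene is called MMP, ADAMTS or TIMP followed directly by a number. This gave 73 of 47229 probes and 47 of 30562 genes, made up of 24 MMP, 19 ADAMTS and 4 TIMP genes. The groups were ES2 cells with GANT61 at 20 µM, ES2 cells with DMSO, H4 cells with GANT61 at 20 µM and H4 cells with DMSO, with 1 Illumina HumanHT-12 V4 array per group and so 4 arrays in all. The titles give 48 h for every sample, and the treatment text also names 32 h. ES2 is an established ovarian tumour line. H4 is commonly described as a neuroglioma line, although the labels give it the same ovarian ascites source as ES2. GANT61 is a small molecule inhibitor of GLI1 and GLI2, through which Hedgehog signals reach their target genes. The series asked whether blocking Hedgehog signalling slows cancer cell growth through autophagy.

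MMPs are zinc-dependent proteases that cut collagens, proteoglycans and adhesive glycoproteins of the extracellular matrix, and most are secreted as inactive precursors. ADAMTS proteases share a related catalytic domain but carry thrombospondin repeats. They trim procollagens, cut proteoglycans such as aggrecan and versican, or cut plasma proteins. TIMPs bind the active site of these enzymes, so the net activity in a tissue depends on both sides. In tumours these genes are known for their part in invasion and matrix remodelling. Transcription of several MMP genes is known to respond to AP-1 and ETS factors.

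Most of the family lay below detection in these cells. A probe was taken as detected where the deposited detection p was under 0.01, and the brightest of a gene's probes stands for it. Because the deposited detection columns name the line but not the treatment, detection is given as the number of a line's arrays, from 0 to 2. Of the 47 members, 33 were detected on no array and 9 on both arrays of at least 1 line. The 14 members detected on at least 1 array make up 29.8% of the family, against 44.3% of all genes. The 9 members detected on both arrays of a line were MMP1, MMP3, MMP25, ADAMTS1, ADAMTS2, ADAMTS6, TIMP1, TIMP2 and TIMP3. Both lines detected MMP3, ADAMTS1, ADAMTS6, TIMP1, TIMP2 and TIMP3 on both of their arrays. A further 5 members were detected on a single array of a line, namely MMP13, ADAMTS13 and ADAMTS19 in H4, ADAMTS8 in ES2, and MMP23A once in each line.

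The undetected members include several of the best known enzymes. The gelatinases MMP2 and MMP9, the membrane protease MMP14 that activates the MMP2 precursor, the matrilysin MMP7, the aggrecanases ADAMTS4 and ADAMTS5, and the inhibitor TIMP4 were detected on no array. On chromosome 11 the 9 consecutive protein-coding genes from MMP7 to MMP13 are all family members, and MMP1 and MMP3 were detected on both arrays of a line, MMP13 on 1 H4 array, and the other 6 on none. The labels give both lines the same tissue, and defining markers of it were mixed. Both arrays detected 4 of 16 ovarian, Müllerian and epithelial markers in each line, 3 of 15 glial and neural markers in ES2 and 4 of 15 in H4, 6 of 12 mesenchymal markers in ES2 and 7 of 12 in H4, and 1 of 9 blood cell markers, CD68, in each line. KRT18 and ARID1A were detected on both arrays of both lines, KRT7 and KRT8 on both ES2 arrays, and MUC1 and SLPI on both H4 arrays. Of the glial and neural markers, SLC1A3 and TUBB3 were detected on both arrays of both lines, MBP on both ES2 arrays, and OLIG2 and NCAM1 on both H4 arrays. PAX8 and EPCAM, which mark Müllerian and epithelial cells, and GFAP and S100B, which mark glia, were detected on no array.

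Every value below is an intensity as deposited, on a linear scale, or a log2 level after background correction and quantile normalization of the 4 arrays. The deposited values were scaled within each line, so the lines are compared on the normalized log2 scale, with the authors' values as an alternative. The fold changes and log2 ratios are GANT61 over DMSO on that normalized scale. With 1 array per group, a ratio within a line has no replicate and no p-value. Among genes with a second detected probe, the spread of the ratio between probes of a gene was an SD of 0.143 (log2) in ES2 and 0.221 in H4. The probes were read on the same arrays, so this spread holds no variation between cultures or arrays. A ratio larger than it may still not repeat. In bulk RNA, fewer cells that express a gene and less RNA per cell cannot be told apart.

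The upstream sequences of 2 inhibitors are shown because these inhibitors gave the family's largest and one of its smallest ratios in H4. They are the 250 bases before the annotated start, read 5′ to 3′, from RefSeq (GRCh38.p14). Capitals mark the GC box GGGCGG on either strand.
TIMP3, chr22:32801455-32801704, plus strand: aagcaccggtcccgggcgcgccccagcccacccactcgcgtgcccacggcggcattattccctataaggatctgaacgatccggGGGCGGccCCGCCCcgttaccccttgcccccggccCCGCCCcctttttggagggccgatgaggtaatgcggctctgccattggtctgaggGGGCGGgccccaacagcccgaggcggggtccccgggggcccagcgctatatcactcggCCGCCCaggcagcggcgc
TIMP1, chrX:47582186-47582435, plus strand: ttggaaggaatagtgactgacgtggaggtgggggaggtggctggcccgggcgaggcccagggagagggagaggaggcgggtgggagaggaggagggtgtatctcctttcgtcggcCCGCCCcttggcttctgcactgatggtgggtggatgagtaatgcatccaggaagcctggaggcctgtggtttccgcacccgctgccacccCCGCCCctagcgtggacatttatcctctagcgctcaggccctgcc
The TIMP3 window holds 5 GC boxes and the TIMP1 window 2. Among 27305 windows of the same length, 42.3% hold at least 1 and 4.2% hold 5 or more. Within the family, ADAMTS7 (7), ADAMTS10 (5) and MMP15 (5), all detected on no array, hold as many as TIMP3 or more. The other members with a window hold fewer, and a link between GC boxes and ratios was not tested. The AP-1 element TGANTCA, which reads the same on both strands, is in neither window, and 6.6% of all windows hold it. Exact matches alone were counted, so variants such as tgagtaa, which the TIMP1 window holds, are left out. The absence of TGANTCA thus does not show that a window lacks an AP-1 site. The ETS core GGAA occurs once in the TIMP3 window and 4 times in the TIMP1 window, counting both strands, and is in 92.8% of windows. The motifs do not overlap one another in these windows. Of the 47 members, 27 matched an upstream window, among them 6 of the 14 detected on at least 1 array. MMP1, MMP3, MMP25, ADAMTS1 and TIMP2 have no entry.

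The stromelysin MMP3 was higher with GANT61 in both lines, by 2.17-fold in ES2 and 2.06-fold in H4. This secreted enzyme cuts proteoglycans, fibronectin and laminin and activates other MMP precursors. Its deposited intensity was 299.7 with GANT61 and 145 with DMSO in ES2, and 325 with GANT61 and 191 with DMSO in H4. On the normalized log2 scale the levels were 7.96 and 8.24 with GANT61 against 6.84 and 7.20 with DMSO, so both GANT61 arrays lay above both DMSO arrays. The log2 ratio was 1.12 in ES2 and 1.04 in H4. In ES2 this was the highest ratio of 12214 genes measured, meaning detected by 1 array or more, of which 0.0327% were at least 2-fold higher. Without background correction MMP3 was not first in ES2, since 1 gene outside the family was at least 2-fold higher and MMP3 was not. In H4 the MMP3 ratio ranked 434th of 11545, of which 4.06% were at least 2-fold higher.

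**Figure D1:**
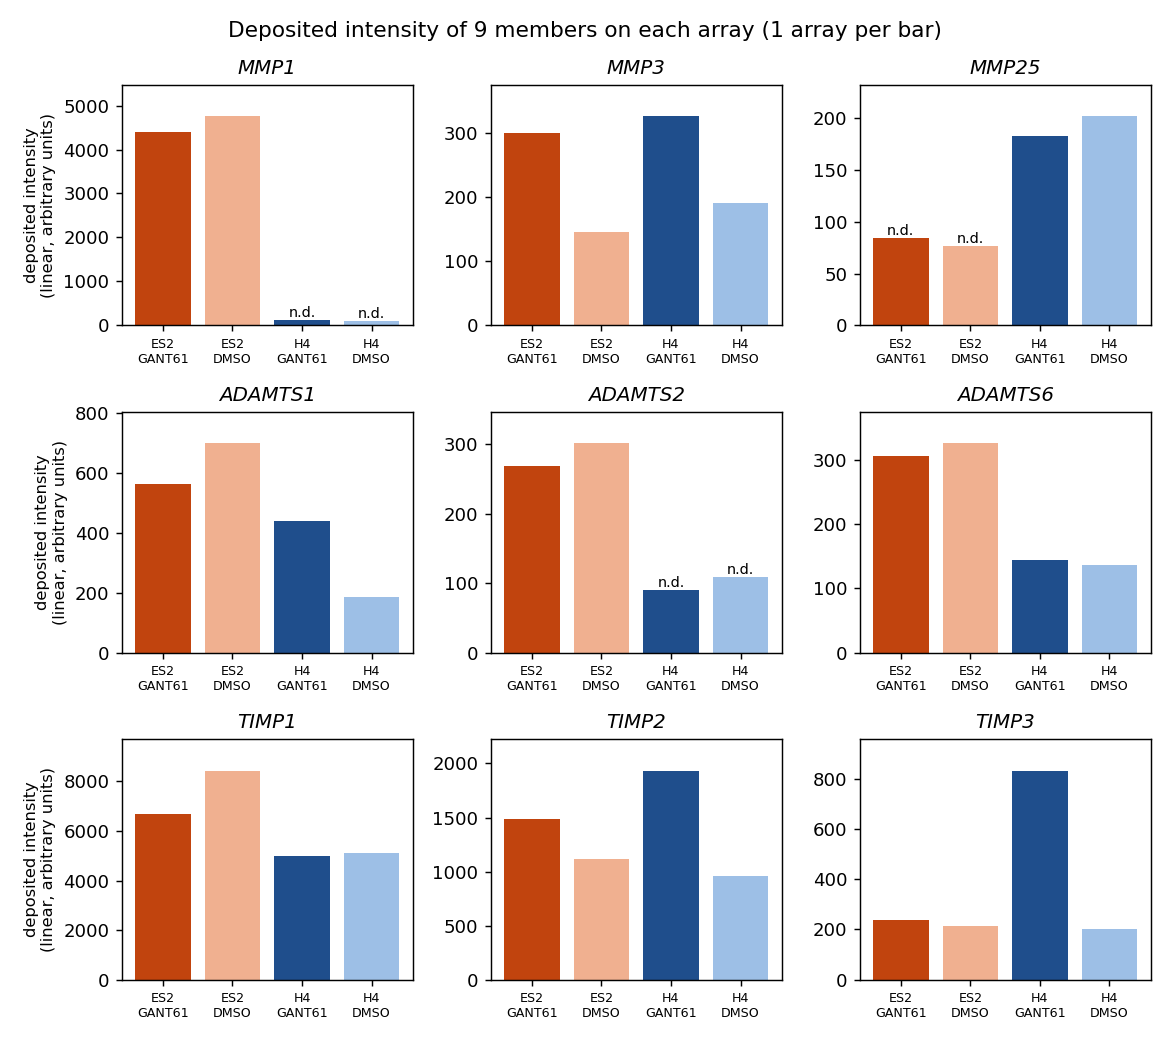
Deposited intensity (linear, arbitrary units) of the 9 members detected on both arrays of at least 1 line, with 1 bar per array, and n.d. over the bars of a line in which neither array detected the probe. MMP3 is higher on the GANT61 array of each line, TIMP3 is at 832 on the H4 GANT61 array against 201 on the H4 DMSO array, and MMP1 was detected in ES2 alone; the deposited values of ES2 and H4 were scaled separately.

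A common response to GANT61 was estimated in limma, with the line as a block and the 2 lines as the only repeats, which leaves 1 residual degree of freedom. A gene's own residual there is the difference between its ratios in the 2 lines. The standard errors lean mostly on a spread pooled over the genes fitted. For MMP3 the shared log2 difference was 1.08 with a standard error of 0.258, and limma's adjusted p was 0.0635. The adjusted p lay between 0.0363 and 0.999 under the alternatives tried, and was under 0.05 under 1 of them, the mean of the detected probes. MMP3 was measured by 1 probe, so its shared difference stayed at 1.08 there and only the values of other genes changed. Of the 10229 genes detected in both lines, 22 were called, which is 0.215% (0.186% higher and 0.0293% lower). None of the 7 members fitted was called, whereas 4 of them had an unadjusted p under 0.05, against 6.12% of all genes. Those 4 were MMP3, TIMP3, TIMP2 and ADAMTS1. The ratios of ADAMTS1 had opposite signs, 1.65 in H4 and -0.32 in ES2, and those of TIMP3 were 2.48 in H4 and 0.16 in ES2. For ADAMTS1 and TIMP3 the shared difference is thus a mean of unlike ratios and not a response common to the lines. Without limma's trend, again no member was called. The shared log2 difference was 1.32 for TIMP3 (adjusted p = 0.0837), 0.77 for TIMP2 (adjusted p = 0.395) and 0.66 for ADAMTS1 (adjusted p = 0.801).

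Of the inhibitors, TIMP3 gave the largest ratio of the family, and it did so in H4. TIMP3 binds to the matrix and inhibits MMPs, ADAMs and ADAMTS proteases. It had a deposited intensity of 832 with GANT61 and 201 with DMSO in H4, and of 238 with GANT61 and 214 with DMSO in ES2. On the normalized log2 scale the H4 GANT61 array, at 9.80, stood above the H4 DMSO array at 7.32 and the ES2 arrays at 7.62 with GANT61 and 7.45 with DMSO. The log2 ratio was 2.48 in H4 (5.59-fold), the 44th highest of 11545 genes, and 0.16 in ES2 (1.12-fold). TIMP3 was measured by 1 probe, and the difference between the 2 ratios could not be tested, since each rests on a single pair of arrays.

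TIMP2 was also higher in H4, on more than 1 probe. TIMP2 inhibits MMPs, and MMP14 needs it to activate the MMP2 precursor. Its brightest probe read 1934 with GANT61 and 962 with DMSO in H4, and 1486 with GANT61 and 1114 with DMSO in ES2. On the normalized log2 scale both GANT61 arrays, at 10.33 and 11.12, lay above both DMSO arrays, at 9.90 and 10.01. The second detected probe read 259 with GANT61 and 159 with DMSO in H4, but 203 with GANT61 and 200.4 with DMSO in ES2. The 2 probes thus gave log2 ratios of 1.11 and 1.04 in H4 and of 0.43 and 0.02 in ES2, so that the probes were alike in H4 and unlike in ES2. On the brightest probe the H4 ratio was the 381st highest of 11545 genes. Another TIMP2 probe was detected on no array.

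TIMP1, a secreted inhibitor, did not share in the H4 difference. Its deposited intensity was 4986 with GANT61 and 5117 with DMSO in H4, a log2 ratio of -0.04. In ES2 it was 6694 with GANT61 and 8438 with DMSO, a log2 ratio of -0.32, or 1.25-fold lower. The H4 ratio was smaller than the spread between probes, and the ES2 ratio was larger than it.

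Among the ADAMTS proteases, ADAMTS1 differed most, in H4. ADAMTS1 cuts the proteoglycans aggrecan and versican. It read 439 with GANT61 and 184 with DMSO in H4, and 564 with GANT61 and 698 with DMSO in ES2. The lines went opposite ways, with a log2 ratio of 1.65 in H4 (3.13-fold higher) and -0.32 in ES2 (1.25-fold lower). The H4 ratio of ADAMTS1 was the 140th highest of 11545 genes. ADAMTS6, a relative of the fibrillin-binding ADAMTS10, read 144 with GANT61 and 137 with DMSO in H4, and 306 with GANT61 and 326 with DMSO in ES2, for log2 ratios of 0.16 and -0.10, both smaller than the spread between probes. ADAMTS2, which removes the N-propeptide of fibrillar procollagens, was detected in ES2 alone. Its brighter probe read 268 with GANT61 and 301 with DMSO there, and 89.7 with GANT61 and 108 with DMSO in H4. In ES2 both of its probes were slightly lower, with log2 ratios of -0.18 and -0.16.

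MMP1 and MMP25 were each detected on both arrays of a single line and differed little with GANT61. MMP1, the interstitial collagenase, read 4390 with GANT61 and 4755 with DMSO in ES2, a log2 ratio of -0.11, and 130.2 with GANT61 and 102 with DMSO in H4, where neither array detected it. MMP25, a protease with a GPI anchor known from leukocytes, read 183 with GANT61 and 202 with DMSO in H4, a log2 ratio of -0.21, and 84.2 with GANT61 and 76.6 with DMSO in ES2, where neither array detected it. Both ratios in the detecting line were smaller than the spread between its probes. In ES2, MMP1 and MMP3 thus parted: the neighbouring genes had log2 ratios of -0.11 and 1.12.

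Members detected on 1 array of a line carry little more than a bound. For these, the brighter array was taken as the one that detected the probe, and the dimmer array was not allowed to fall under a floor, the lowest normalized level of any gene that both arrays of that line detected. On that basis ADAMTS13, which cuts von Willebrand factor, was at least 1.36-fold higher in H4, where it read 149 with GANT61 and 113 with DMSO. Its other probes were detected on no array and went both ways, with log2 ratios of 0.16 and -0.26 in H4. MMP13, a collagenase of cartilage and bone, was at least 1.10-fold lower there, at 112 with GANT61 and 144 with DMSO. ADAMTS8 was at least 1.02-fold higher in ES2, at 91.7 with GANT61 and 72.2 with DMSO. ADAMTS19 read 79.5 with GANT61 and 137 with DMSO in H4, a log2 ratio of -1.47 with no bound above 1-fold. MMP23A is annotated as a pseudogene and its probe may share signal with MMP23B. It was at least 1.04-fold lower in ES2, at 84.3 with GANT61 and 91.5 with DMSO. In H4 it read 129 with GANT61 and 136 with DMSO, and no fold is given. The other MMP23A probes were detected on no array, with log2 ratios of 0.29 and 0.33 in ES2.

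**Figure D2:**
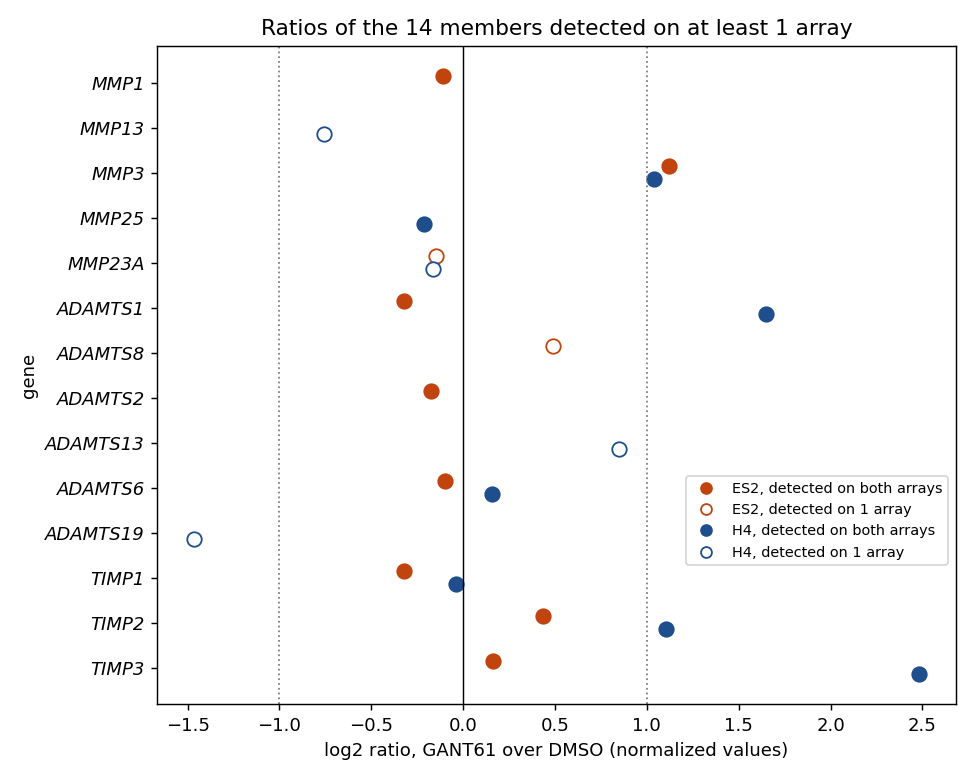
Log2 ratio of GANT61 over DMSO (horizontal axis, normalized values) for the 14 members detected on at least 1 array, in ES2 and in H4. Filled points are detected on both arrays of the line and open points on 1, dotted lines mark 2-fold, and a line that detected the gene on no array has no point; MMP3 lies past 2-fold in both lines, at 1.12 and 1.04, and TIMP3, ADAMTS1 and TIMP2 in H4 alone.

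Counted over the family, 4 of the 11 members measured in H4 were at least 2-fold higher (MMP3, TIMP2, TIMP3 and ADAMTS1), beside 4.06% of all genes measured there. Of the same 11, 1 (ADAMTS19) had a ratio past 2-fold lower, beside 3.53% of all genes, but it rests on an array that did not detect it. Where a gene seen by 1 array takes its bound as its ratio, a setting chosen after seeing the data, 4 of 11 members were at least 2-fold higher and 0 lower in H4, beside 3.48% and 2.75% of all genes. In ES2, 1 of 10 members (MMP3) was at least 2-fold higher, beside 0.0327% of all genes, and 0 were at least 2-fold lower, likewise beside 0.0327%. At 1.5-fold, 5 members were higher and 2 lower in H4, beside 11.3% and 12.6% of all genes, and 1 was higher and 0 lower in ES2, beside 0.36% and 0.319%. The median log2 ratio over the measured members was 0.16 in H4 and -0.10 in ES2, against -0.05 and 0.00316 over all measured genes. A member that was measured through 1 array alone is there because of its level on that array, so that counts over measured members describe these arrays and support nothing further. The numbers of members past 2-fold depend on the background correction: without it they were 3 in H4 (ADAMTS1, TIMP2 and TIMP3) and 0 in ES2.

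Undetected probes show how far ratios spread where there is little signal. In ES2, 61 member probes were detected on neither array, and their log2 ratios ran from -0.75 (MMP27) to 1.21 (MMP7), with 2 of them past 2-fold, against 0.423% of all undetected probes. In H4, 61 were detected on neither array, with log2 ratios from -0.66 (ADAMTS17) to 0.67 (MMP1) and none past 2-fold, against 0.166% of all undetected probes. The MMP7 probe read 69.3 with GANT61 and 49.5 with DMSO in ES2, and its second probe went the other way, at 42.8 with GANT61 and 48.3 with DMSO. The other probe past 2-fold was 1 of 2 for MMP19, the second of which read 75.5 with GANT61 and 75.1 with DMSO.

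**Figure D3:**
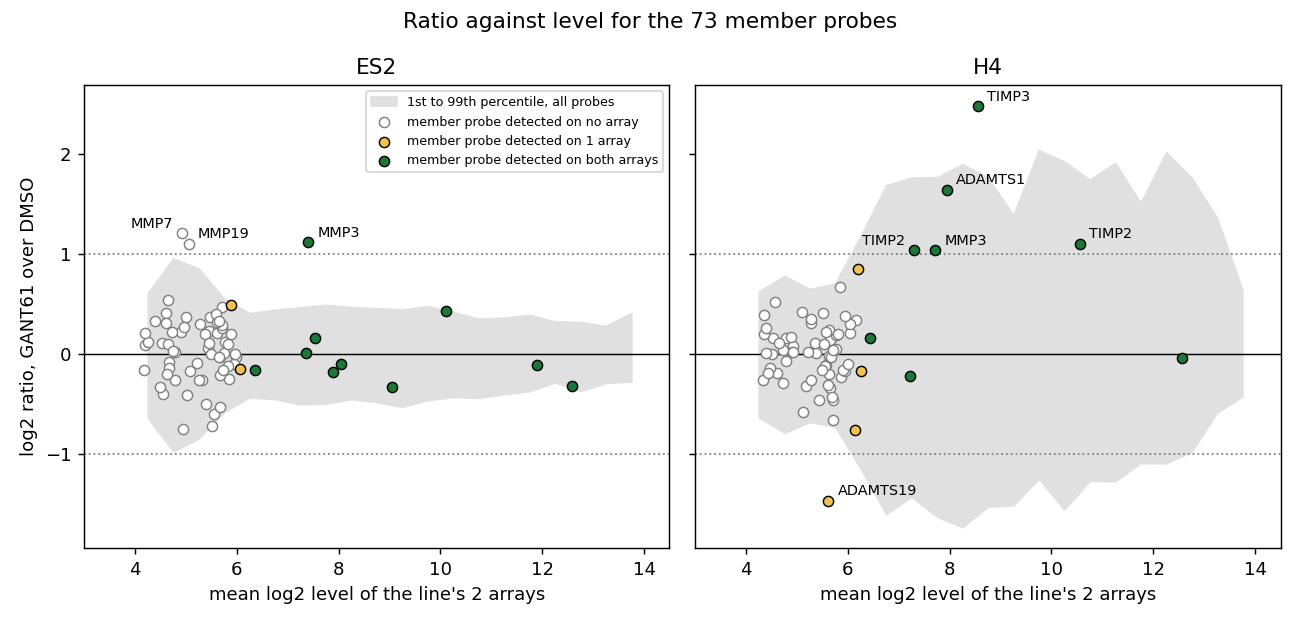
Log2 ratio of GANT61 over DMSO (vertical axis) against the mean log2 level of the line's 2 arrays (horizontal axis) for the 73 member probes in ES2 (left) and H4 (right), coloured by detection, with the 1st to 99th percentile of all probes in grey. MMP3 in ES2 and TIMP3 in H4 lie above the grey band, as do the MMP7 and MMP19 probes past 2-fold in ES2, which are detected on no array. ADAMTS19 in H4, detected on 1 array, lies below the band. MMP3, TIMP2 and ADAMTS1 in H4 are past 2-fold but lie within the band.

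Of the 14 members fitted, the collagenase MMP1 differed most between the lines. Comparing ES2 with H4 in limma, with the treatment as a block, MMP1 was 6.05 higher in ES2 on the log2 scale (standard error 0.286, adjusted p = 5.81e-08). The normalized log2 levels were 11.85 with GANT61 and 11.96 with DMSO in ES2, against 6.19 with GANT61 and 5.52 with DMSO in H4, where neither array detected MMP1. Held at the detection floor of H4, MMP1 was at least 49.4-fold higher in ES2. Across all 13530 genes, 17.8% were called higher and 15% lower in ES2, and 4 members were called higher and 1 lower of 14 fitted. Line, culture and any processing batch cannot be told apart, and 2 arrays of different treatment stand for each line. The standard errors here again lean mostly on a spread pooled over the genes fitted.

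The 3 other members called higher in ES2 were ADAMTS proteases. ADAMTS2 was 2.45 higher on the log2 scale (adjusted p = 1.32e-05 in limma) and at least 3.04-fold higher against the floor of H4, where neither array detected it. With its second probe the log2 difference was 0.59 and the adjusted p 0.0758. ADAMTS6 was 1.61 higher (adjusted p = 0.000433), or 3.06-fold, with a mean normalized log2 level of 8.04 in ES2 against 6.43 in H4. ADAMTS1 was 1.11 higher (adjusted p = 0.0477), and this call was lost under 4 alternatives, with adjusted p between 0.0511 and 0.0589. Its difference was 0.12 on the GANT61 arrays and 2.09 on the DMSO arrays, so the lines lay closer on the GANT61 arrays.

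MMP25 was the member called lower in ES2. Its log2 difference was -1.33 (adjusted p = 0.00131 in limma), and H4 was at least 2.19-fold above the floor of ES2, where neither array detected it. Another MMP25 probe, detected on no array, was not lower in ES2. Its log2 levels were 4.52 with GANT61 and 4.72 with DMSO in ES2, against 4.33 and 4.51 in H4. MMP13 missed the threshold at -0.62 (adjusted p = 0.0506 in limma). It was detected on 1 H4 array and on neither ES2 array, and H4 was at least 1.038-fold above the floor of ES2. TIMP3 had a difference of -1.02 (adjusted p = 0.086), made up of -2.18 on the GANT61 arrays and 0.14 on the DMSO arrays. TIMP1 differed by 0.02 (standard error 0.18, adjusted p = 0.932), MMP3 by -0.32 (standard error 0.246, adjusted p = 0.347) and TIMP2 by -0.45 (standard error 0.262, adjusted p = 0.213). For MMP3 and TIMP2 the sign turned under median scaling of the arrays, to 0.29 and 0.40.

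**Figure D4:**
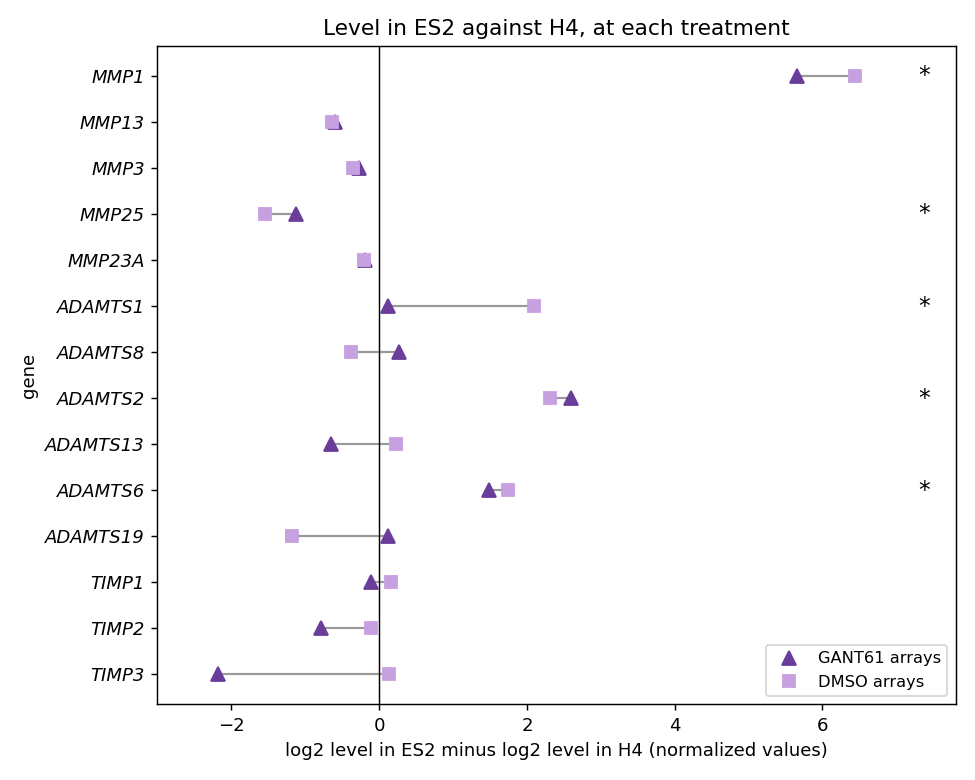
Log2 level in ES2 minus log2 level in H4 (horizontal axis, normalized values) for the 14 members detected on at least 1 array, on the GANT61 arrays (triangles) and on the DMSO arrays (squares). A star marks an adjusted p under 0.05 in the limma fit over both treatments; MMP1 stands at 5.66 and 6.44, while ADAMTS1 and TIMP3 differ between the treatments by the width of their grey line.

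Other genes of matrix proteolysis, from a list of 46, included several with higher levels in H4. Of 28 measured there, 6 were at least 2-fold higher and 0 lower, beside 4.06% and 3.53% of all genes, and the median log2 ratio over the 28 was 0.18, against -0.05 over all genes. In ES2, 0 of 29 were past 2-fold in either direction, with a median of -0.07. PLAUR, the receptor of the urokinase activator, read 707 with GANT61 and 174 with DMSO in H4, and 1342 with GANT61 and 1266 with DMSO in ES2. It was higher by 5.82-fold in H4 and by 1.06-fold in ES2. PLAT, the tissue activator, was 3.66-fold higher in H4, and PLAU, the urokinase activator, 2.64-fold. SERPINE2, a protease inhibitor, was 2.13-fold higher in H4 and the hyaluronan receptor CD44 2.05-fold. Proteases and inhibitors were thus both among the genes at least 2-fold higher in H4, as they were within the family (MMP3 and ADAMTS1 beside TIMP2 and TIMP3).

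Of a list of 22 matrix substrates, 8 were measured in H4, of which 4 had a ratio past 2-fold lower and 0 higher, beside 3.53% and 4.06% of all genes. The median log2 ratio over the 8 was -1.12, against -0.05 over all genes. LUM, the proteoglycan lumican, read 1132 with GANT61 and 3211 with DMSO there, a 3.05-fold lower level, and was detected on both arrays. The other 3, COL1A1, COL3A1 and DCN, were each detected on 1 H4 array and are named after their values were seen. Against the floor COL3A1 was at least 3.75-fold lower, DCN at least 2.37-fold and COL1A1 at least 1.19-fold, so that 3 of the 8 were at least 2-fold lower by their bounds, and the median was -0.38. THBS1, or thrombospondin 1, was higher with a log2 ratio of 0.59. In ES2, 0 of 11 substrates were past 2-fold, with a median of 0.20. Mesenchymal markers, a list that shares LUM, COL1A1, COL3A1 and DCN with the substrates, had a ratio past 2-fold lower for 6 of 11 measured in H4, or 5 by their bounds, and for 0 of 6 in ES2. Summed over the 12 markers of that list, the deposited intensity was 8979 with GANT61 and 12008 with DMSO in H4, and 17448.5 with GANT61 and 18025 with DMSO in ES2. Bright genes weigh most in these sums, in H4 LUM and VIM, which read 5583 with GANT61 and 5686 with DMSO there. Over the 7 markers that both H4 arrays detected, the median log2 ratio was -0.07, with 3 at least 2-fold lower and 0 higher. COL1A2 was the marker of that list detected on no array. The part of the marker difference in the results above was not tested.

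Transcription factors known to act on MMP promoters, a list of 27, went both ways in H4. Of 20 measured, 5 had a ratio past 2-fold higher and 3 lower, beside 4.06% and 3.53% of all genes. The median log2 ratio over the 20 was 0.33, against -0.05 over all genes. MAFF, a small MAF factor, was 5.37-fold higher, the ETS factor ETV5 3.21-fold and the AP-1 partner ATF3 2.21-fold. The AP-1 subunits FOSB and FOSL1 and the runt factor RUNX2 were detected on 1 H4 array each and are likewise named after their values were seen. Against the floor FOSL1 was at least 3.23-fold higher, FOSB at least 1.19-fold higher and RUNX2 at least 2.58-fold lower, so that 4 factors were at least 2-fold higher and 3 lower by their bounds. The immediate early factor EGR1 was 2.22-fold lower, and SNAI2 and TWIST1, regulators of mesenchymal state, were 2.17-fold and 1.77-fold lower. In ES2, 1 of 25 was past 2-fold, EGR1, at 784 with GANT61 and 1607 with DMSO (2.07-fold lower). EGR1 was thus lower with GANT61 in both lines. In the shared fit, limma called 0 of 20 of these factors, 0 of 24 other matrix protease genes and 0 of 5 substrates, with 6, 5 and 1 at an unadjusted p under 0.05.

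Between the lines, 32.8% of all genes were called, 17.8% higher and 15% lower in ES2. Of 33 other matrix protease genes fitted, 10 were called higher and 11 lower in ES2. The largest differences were PLAT (3.88 on the log2 scale, adjusted p = 8.37e-06 in limma), CTSK, a collagen-cutting cathepsin (2.41, and at least 2.35-fold against the floor of H4), ADAMTSL1 (2.19, at least 3.03-fold) and PLAU (2.04, 4.10-fold). Of 14 substrates, 6 were called higher and 4 lower. H4 was at least 31.6-fold above the floor of ES2 in LUM, whereas ES2 was at least 12.6-fold above the floor of H4 in the proteoglycan BGN. COL1A1, detected on 1 H4 array, was at least 7.14-fold higher in ES2 against the floor. Of 25 transcription factors, 6 were called in each direction, among them FOSL1, an AP-1 subunit detected on 1 H4 array (at least 15.8-fold higher in ES2 against the floor), EGR1 (4.07-fold higher in ES2), ATF3 (8.13-fold lower in ES2) and JUND (3.87-fold lower in ES2).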

How the data were processed

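RNA was isolated, amplified with biotin label and hybridized to 1 BeadChip array a sample, per the labels' protocols. In the deposited value table each probe has a linear intensity on each array. Its sorted values differ by a median of 0.00457% between the ES2 arrays and 0.0103% between the H4 arrays, but by 30.2% between ES2 and H4 with DMSO, as quantile normalization within each line would leave them. The software is not given in the sources used here. The deposited table of signals that were not normalized gives each probe a detection p-value on each array, per the file headers. Its 4 signal columns name no treatment and were not used. Between 27.3% and 33.4% of the probes were detected on an array, and the number of arrays limits the precision.

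From the authors' intensities, log2 levels were made in R 4.3.3 with limma 3.58.1, by normexp correction (saddle-point, with 16 added as offset) and then quantile normalization of all 4 arrays. The offset shrinks ratios where signals are dim. Probes were given current symbols from RefSeq (GRCh38.p14) where a symbol, a unique synonym or a gene number matched. A gene entered a comparison within a line when at least 1 of its arrays detected it. The fits used lmFit and eBayes with a trend and Benjamini-Hochberg adjustment over all genes fitted. Genes were called at an adjusted p under 0.05. Nothing describes the samples as separate cultures beyond their titles, so p-values rest on the spread between these arrays alone. With 1 residual degree of freedom, limma's standard errors lean mostly on a spread pooled over the genes fitted. The p-values thus do not measure a gene's own spread between arrays. Alternatives were an offset of 50 or no background correction, median scaling or the authors' values, other probe rules and detection filters, and no trend. Members detected on at least 1 array are named, with values on each array where both arrays of a line detected them. From the other lists, genes past 1.5-fold and detected on both arrays of a line are named, at most 6 per list and line, and at most 4 per list between the lines. Some genes that this rule names are not reported here. The members and lists were chosen with earlier results of these data known.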

Additional observations from a re-analysis of the deposited data

Results flagged for a closer look

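ADAMTS1 and ADAMTS6, both detected on both arrays of each line, had ratios of opposite sign in the 2 lines. For ADAMTS1 the log2 ratio of GANT61 over DMSO was 1.65 in H4 and -0.32 in ES2, a difference of 1.97. For ADAMTS6 it was 0.16 in H4 and -0.10 in ES2, a difference of 0.26, and each of these ratios was smaller than the spread between probes of its line. Neither difference was tested, because each ratio rests on 1 array per treatment.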

How the results depend on the processing

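The number of members past 2-fold in H4 was 5 in all and fell to 3 with an offset of 50, without background correction and on the authors' values, since MMP3 and ADAMTS19 dropped below 2-fold there. In ES2 the number was 1, and it was 0 with an offset of 50 and without background correction, and 2 without the detection filter. With an offset of 50 and without background correction, 1 gene outside the family was at least 2-fold higher in ES2, so MMP3 was not first there. Where a gene seen by 1 array takes its bound as its ratio, chosen after seeing the data, the numbers were 4 in H4 and 1 in ES2. The log2 ratio of MMP3 ran from 0.91 to 1.23 in ES2 and from 0.77 to 1.04 in H4, that of TIMP3 in H4 from 2.05 to 2.48 and that of ADAMTS1 in H4 from 1.26 to 1.65. In the shared fit, 0 members were called, and 1 (MMP3) with the mean of the detected probes, which left the values of MMP3 itself unchanged. The genes called in all were 22, and with that mean 31 higher and 6 lower, 8 without background correction and 0 under the other alternatives. Between the lines, 5 members were called, but 11 on the authors' values, 2 with the second brightest probe and 3 (ADAMTS1, ADAMTS6 and TIMP3) with detection on all arrays. Median scaling moved the median of all genes in ES2 over H4 to 0.56, against 0.04, with 6576 genes higher and 1032 lower against 2403 and 2033, and the authors' values gave 2916 higher and 4038 lower. TIMP1 was called higher in ES2 under both. The sign of ES2 minus H4 turned for MMP3 (0.29) and TIMP2 (0.40) under median scaling and for TIMP2 with the second brightest probe (0.0588), and the shared difference of ADAMTS6 turned to -0.0091 on the authors' values. The cause of these changes was not tested, except that the filters and the probe rules change which genes are fitted. The call of ADAMTS6 and, where it was fitted, of MMP1 and MMP25 held under the alternatives. MMP25 was fitted neither with the second brightest probe nor with detection on all arrays. No paired analysis was possible because each group holds a single array with the same replicate number, beyond the shared fit, which already pairs the arrays by line; for the same reason no array could be left out. Dim probes limit the ratios of the members detected on 1 array.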
